A study of Mus musculus with 6 samples.

Results

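The genes described here are 48 listed components of the BMP and TGF-beta signalling pathway: ligands, receptors, Smads, the Id target genes, antagonists, and the proteins that process ligands or hold them latent. They were chosen by gene symbol, and 46 of the 48 were found among the 20126 gene symbols of the deposited normalized table. RNA came from first-molar tooth germs of C57BL/6 mice at postnatal day 7, with 3 libraries from Gpr115-/- animals (Gpr115-KO) and 3 from their wild-type (WT) littermates. The RNA is from whole germs, in which enamel-forming ameloblasts, dentin-forming odontoblasts, pulp and supporting cells are mixed. In such samples fewer cells of a type and less RNA per cell cannot be told apart. The labels give neither the deleted stretch of the gene nor the number of animals behind a library, so the p-values speak only of variation among these libraries, which may be technical.

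BMPs, TGF-betas and activins are secreted dimers. They bring type I and type II receptor kinases together, and the type I receptor phosphorylates receptor Smads, which enter the nucleus with Smad4. BMP receptors act mainly through Smad1, Smad5 and Smad9, and TGF-beta and activin receptors through Smad2 and Smad3. In the developing tooth these ligands pass between epithelium and mesenchyme, and BMP and TGF-beta signals are known to act on the differentiation of ameloblasts and odontoblasts, while follistatin restrains ameloblast differentiation in mice.

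Library totals ran from 8317302 to 10328654 counts in Gpr115-KO and from 8833612 to 11122821 counts in WT, so that 3 counts correspond to 0.271 to 0.341 CPM (counts per 1e6, scaled between libraries by TMM). Adgrf4, the gene of GPR115, had 39.1, 20.6 and 27.4 CPM in Gpr115-KO libraries, against 66.9, 62.3 and 67.3 CPM in WT libraries. All 3 Gpr115-KO libraries lay below all WT libraries, with RNA still counted from the locus, and the log2 fold change (Gpr115-KO over WT) was -1.18 (SE 0.21, adjusted p = 0.0889 by edgeR).

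No pathway gene passed an adjusted p of 0.05 in edgeR's quasi-likelihood test: 0 of the 41 members with enough counts to test were called in either direction. Over all 16011 genes tested 0.150% were called, 0.0375% higher and 0.112% lower in Gpr115-KO. At an unadjusted p under 0.05 the members numbered 9, with 4 higher and 5 lower (22%), against 12.3% of all genes tested (4.85% higher and 7.48% lower). The DESeq2 Wald test called 2 members, Fst and Bmp3, both lower, where it called 1.14% of all genes as lower. Of the 41 members 20 had a fitted log2 fold change above 0 and 21 below 0, with a median of -0.01 beside 0.01 over all genes tested and a range of -1.04 to 0.75.

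In 8 of the 41 tested members the 3 Gpr115-KO libraries all lay on one side of the 3 WT libraries. Bmp3, Fst, Tgfbr3 and Smad1 were lower in Gpr115-KO, and Bmp1, Ltbp3, Id1 and Chrd were higher. That is 19.5% of the members tested, against 17.5% of all genes tested (8.55% higher and 8.99% lower), a share near the background. In the other 33 tested members the genotypes overlapped.

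**Figure D1:**
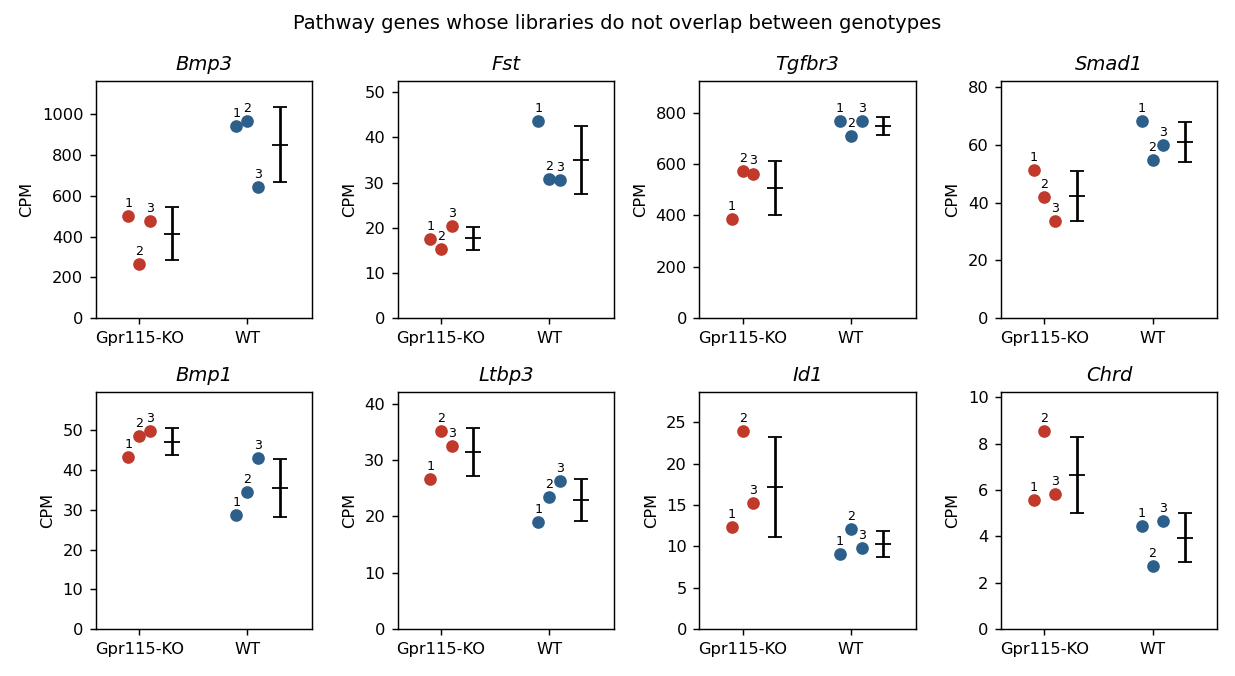
Level in CPM (vertical axes, starting at 0) of the 8 tested pathway genes whose libraries do not overlap between genotypes. Points are single libraries with their replicate number, and the bar beside each group is the mean with 1 SD (n = 3). Bmp3 averages 414 CPM in Gpr115-KO and 851 CPM in WT, and Fst averages 17.7 CPM in Gpr115-KO and 35.0 CPM in WT.

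**Figure D2:**
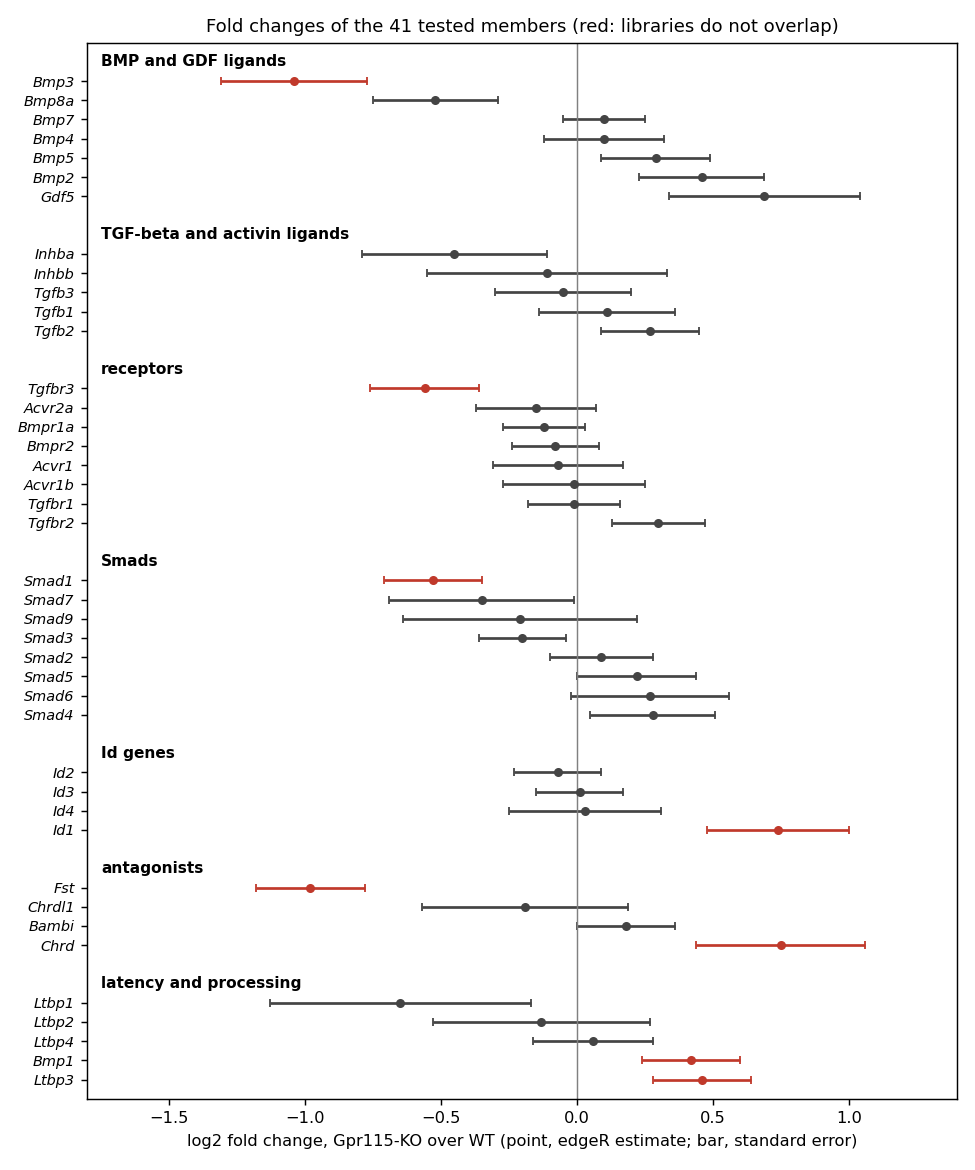
Log2 fold change (Gpr115-KO over WT, horizontal axis) with 1 standard error, derived from edgeR's F statistic, for the 41 tested members, in order of role. Red marks members whose libraries do not overlap between genotypes. The values run from -1.04 for Bmp3 to 0.75 for Chrd, and none passes an adjusted p of 0.05.

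Promoter sequence was available for 32 of the 48 members, from RefSeq (GRCm38.p6), as the 250 bases before the annotated start. It is shown for 3 genes with separated libraries that have an entry, 1 lower and 2 higher in Gpr115-KO, and for the ligand gene Bmp8a. Capitals mark matches, on either strand, to CAGAC (its complement GTCTG), the core of the Smad-binding element, or to the palindrome GGCGCC, a GC-rich motif bound by Smads of the BMP branch. The windows are chr8:79399519-79399678 for Smad1 (minus strand), chr16:20732877-20733126 for Chrd (plus strand), chr19:5740650-5740899 for Ltbp3 (plus strand) and chr4:123343253-123343502 for Bmp8a (minus strand). The Smad1 window keeps the 160 bases outside annotated exons.
Smad1: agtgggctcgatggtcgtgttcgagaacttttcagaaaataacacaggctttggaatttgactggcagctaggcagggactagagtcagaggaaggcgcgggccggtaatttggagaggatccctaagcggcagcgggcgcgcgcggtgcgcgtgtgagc
Chrd: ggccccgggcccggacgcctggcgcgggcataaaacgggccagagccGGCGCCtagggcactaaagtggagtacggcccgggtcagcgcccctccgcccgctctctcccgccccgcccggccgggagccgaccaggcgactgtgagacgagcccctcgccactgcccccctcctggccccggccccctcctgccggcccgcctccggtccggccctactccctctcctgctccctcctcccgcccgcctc
Ltbp3: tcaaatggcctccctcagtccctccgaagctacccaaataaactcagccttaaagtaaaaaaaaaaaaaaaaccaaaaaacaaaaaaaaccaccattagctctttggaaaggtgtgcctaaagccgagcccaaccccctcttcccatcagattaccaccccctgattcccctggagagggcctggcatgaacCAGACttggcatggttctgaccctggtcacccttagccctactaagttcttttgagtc
Bmp8a: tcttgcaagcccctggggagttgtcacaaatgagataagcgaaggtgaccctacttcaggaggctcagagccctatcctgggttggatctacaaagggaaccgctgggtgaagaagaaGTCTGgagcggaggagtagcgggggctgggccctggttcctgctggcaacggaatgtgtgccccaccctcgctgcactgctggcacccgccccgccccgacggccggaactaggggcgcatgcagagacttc
Smad1 held neither motif in this window, Chrd held 1 GGCGCC starting at position -203 from the RefSeq start, Ltbp3 held 1 CAGAC at position -58, and Bmp8a held 1 GTCTG at position -132. CAGAC or its complement stood in 42.2% and GGCGCC in 9.65% of the 32536 mouse promoter windows searched. Some genes have several windows. Counted per gene, 45.8% of 27025 genes had CAGAC or its complement in at least 1 window and 10.8% had GGCGCC, while of the 32 members 16 had CAGAC and 10 had GGCGCC, given with no test. The 2 motifs did not overlap in the windows shown, and a match is a description of the letters only.

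Among the BMP and GDF ligands, Bmp3 had the lowest fold change of all 41 tested members. Bmp3 (chr5:98854415-98884396, ENSMUSG00000029335), a BMP family ligand that antagonizes BMP signalling, had 502, 264 and 476 CPM in Gpr115-KO libraries, against 943, 968 and 641 CPM in WT libraries. Every Gpr115-KO library was below every WT library, and the lowest was Gpr115-KO replicate 2. The means were 414 ± 130.5 CPM in Gpr115-KO and 851 ± 182 CPM in WT (SD, n = 3 each). This is a log2 fold change of -1.04 (SE 0.27, adjusted p = 0.21 by edgeR). DESeq2 called it (adjusted p = 0.0111), and edgeR with no filter on low counts did too (adjusted p = 0.000271), a setting under which 1.25% of all genes were called lower. With each library left out in turn the log2 fold change stayed between -1.21 and -0.80, with edgeR adjusted p from 0.14 to 0.696.

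Per kb of exonic length, Bmp3 and Bmp4 were the most abundant ligands of the BMP branch. Bmp3 stood at 56.0 ± 17.6 CPM per kb in Gpr115-KO and 115 ± 24.6 CPM per kb in WT. Bmp4, the ligand that passes between dental epithelium and mesenchyme, had 186, 220.2 and 128 CPM in Gpr115-KO libraries, against 154, 199.8 and 143 CPM in WT libraries. Its groups overlapped, with the highest and the lowest library both from Gpr115-KO. Bmp4 over Bmp3, per kb, was 1.22, 2.74 and 0.885 in Gpr115-KO libraries, against 0.538, 0.679 and 0.734 in WT libraries. Bmp3 made up 35.8%, 20.2% and 38.2% of the summed CPM per kb of this ligand list in Gpr115-KO libraries, against 55.1%, 49.9% and 44.0% in WT libraries. These shares were looked at after the values were seen and are given with no test. They show Bmp4 ahead of Bmp3 in 2 of 3 Gpr115-KO libraries and Bmp3 ahead of Bmp4 in all 3 WT libraries.

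Bmp8a, a ligand best known from the mouse germ line, had 20.3, 14.5 and 24.7 CPM in Gpr115-KO libraries, against 21.2, 32.5 and 32.0 CPM in WT libraries. The groups overlapped through Gpr115-KO replicate 3 and WT replicate 1, and the log2 fold change was -0.52 (SE 0.23, adjusted p = 0.403 by edgeR), or -0.34 without Gpr115-KO replicate 2. A stretch of 192 nt of its transcript is 99.5% identical to Gm17244, so its count is uncertain. The other 5 tested ligands of this branch, Bmp2, Bmp4, Bmp5, Bmp7 and Gdf5, had fitted values above 0 and overlapping libraries. Bmp7, a BMP made widely in dental epithelium, had 67.4 to 78.1 CPM in Gpr115-KO and 60.8 to 77.0 CPM in WT. Gdf5, a joint-forming ligand, reached 11.3 CPM in Gpr115-KO replicate 2, beside 5.29 and 5.34 CPM in the other Gpr115-KO libraries and 3.44 to 5.55 CPM in WT. Bmp5 and Gdf5 share exonic sequence with genes of the opposite strand (46.66% and 40.34% of their length), and the reads carry no strand. Bmp6, Gdf6 and Gdf10 had too few counts to test. Bmp6 had 4, 2 and 2 counts in Gpr115-KO libraries, against 6, 5 and 5 counts in WT libraries. It was thus lower in every Gpr115-KO library, but at a few counts only. Gdf10, which the normalized table does not list, had at most 5 counts in any library.

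**Figure D3:**
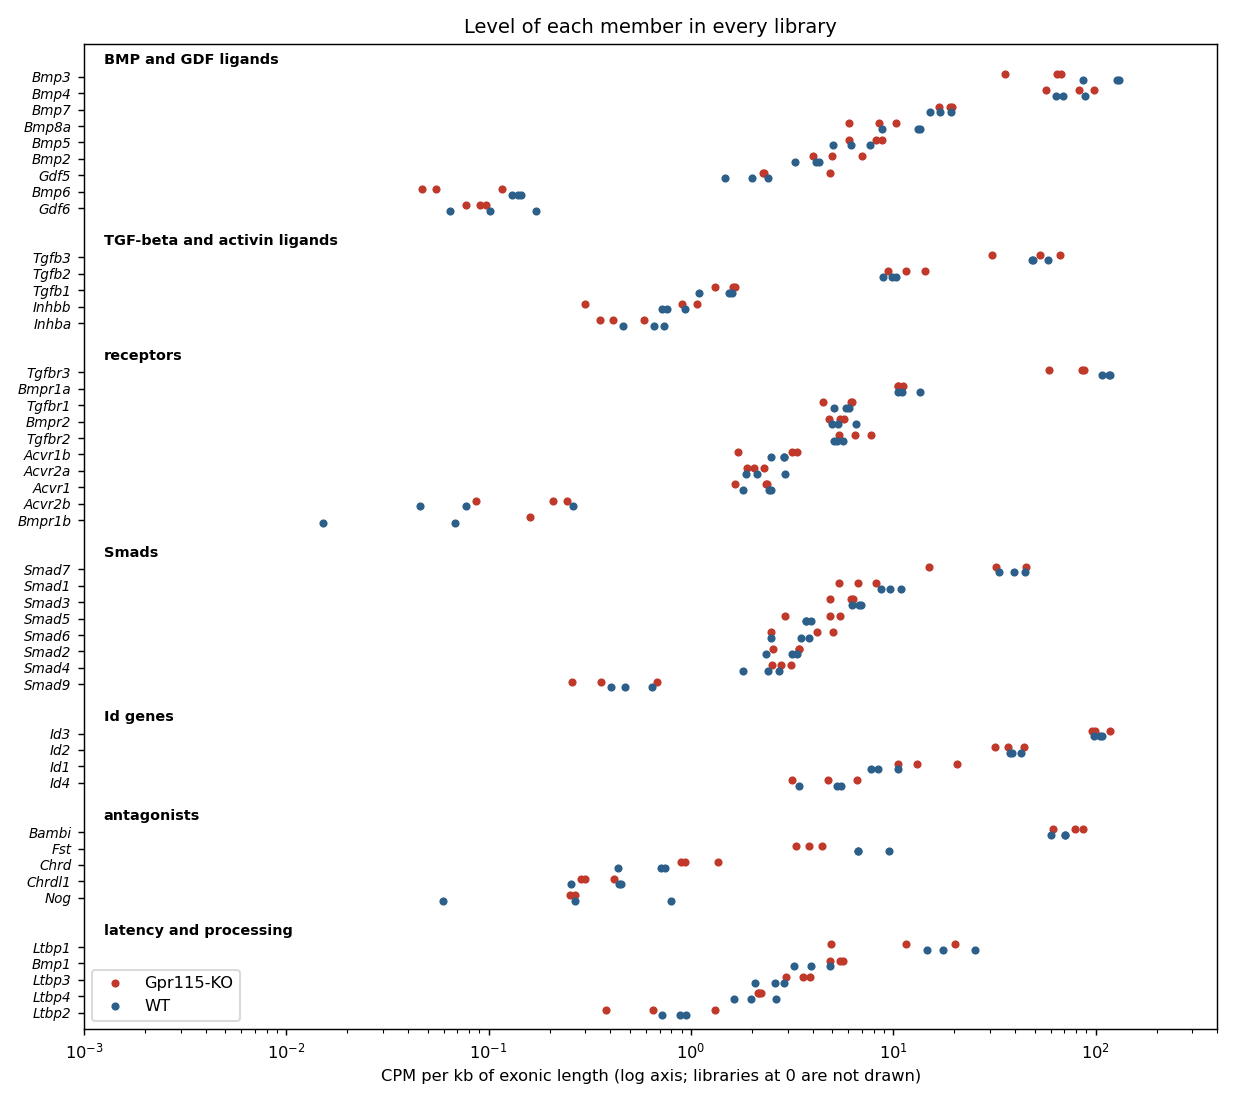
Level of each member in every library, in CPM per kb of exonic length on a log axis, by role, with Gpr115-KO libraries drawn above WT libraries of the same gene. Libraries at 0 are not drawn. Bmp3, Bmp4, Tgfb3, Tgfbr3, Id2, Id3 and Bambi lie above 30 CPM per kb in every library, and the red and blue points of Bmp3, Tgfbr3 and Fst are apart.

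In the TGF-beta and activin ligands no genotype difference exceeded the overlap of the libraries. Tgfb3 was the most abundant per kb, at 50.3 ± 18.4 CPM per kb in Gpr115-KO and 52.0 ± 5.54 CPM per kb in WT. It had 180.4, 103 and 226 CPM in Gpr115-KO libraries, against 163, 167 and 197 CPM in WT libraries. The Gpr115-KO libraries thus held both the lowest and the highest value. Tgfb2, the isoform with roles in heart and craniofacial development in mice, had 66.8, 54.4 and 82.7 CPM in Gpr115-KO libraries, against 51.7, 59.7 and 57.3 CPM in WT libraries. Gpr115-KO replicate 2 lay among the WT libraries, and the log2 fold change was 0.27 (SE 0.18, adjusted p = 0.561 by edgeR), or 0.41 without Gpr115-KO replicate 2 and 0.11 without Gpr115-KO replicate 3. Inhba, the activin A subunit needed for incisor and lower-molar formation in mice, had 2.27, 3.73 and 2.64 CPM in Gpr115-KO libraries, against 4.70, 4.19 and 2.94 CPM in WT libraries, with overlapping groups and a log2 fold change of -0.45 (SE 0.34, adjusted p = 0.622 by edgeR). Without Gpr115-KO replicate 2 it was -0.68. Tgfb1, the widely expressed isoform, had 6.61 to 8.29 CPM in Gpr115-KO and 5.52 to 8.01 CPM in WT, and Inhbb, the activin B subunit, 1.28 to 4.54 CPM in Gpr115-KO and 3.06 to 3.98 CPM in WT.

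Of the 8 receptors tested 7 had a fitted log2 fold change below 0, most of them close to it, with a median of -0.08. Tgfbr3 (chr5:107106570-107289629), the betaglycan co-receptor that presents TGF-beta and binds inhibin, was the only one with separated libraries. Its level was 387, 571 and 563 CPM in Gpr115-KO libraries, against 768, 709 and 769 CPM in WT libraries. All Gpr115-KO libraries were below WT, replicate 1 the furthest, and the log2 fold change was -0.56 (SE 0.20, adjusted p = 0.297 by edgeR). Per kb Tgfbr3 was by far the most abundant receptor gene, at 77.5 ± 15.9 CPM per kb in Gpr115-KO and 114 ± 5.28 CPM per kb in WT. The next, the BMP type I receptor Bmpr1a, lay between 10.5 and 13.5 CPM per kb in all libraries.

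Tgfbr2, the type II receptor for TGF-beta, had 53.1, 63.4 and 44.3 CPM in Gpr115-KO libraries, against 43.3, 45.9 and 41.8 CPM in WT libraries. WT replicate 2 exceeded Gpr115-KO replicate 3, and the log2 fold change was 0.30 (SE 0.17, adjusted p = 0.497 by edgeR), or 0.16 without Gpr115-KO replicate 2. Its transcript shares near-identical stretches of 150 to 171 nt with 9 others, so its count is less certain. Tgfbr1, its type I partner, had 29.4 to 40.9 CPM in Gpr115-KO and 33.3 to 39.5 CPM in WT, and Bmpr2, the BMP type II receptor, 86.2 to 102 CPM in Gpr115-KO and 89.8 to 118 CPM in WT. The activin-type receptors Acvr1, Acvr1b and Acvr2a stayed between 7.57 and 16.5 CPM in all libraries, with overlapping groups. Bmpr1b and Acvr2b were too low to test, each with at most 9 counts in a library.

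Among the Smads, Smad1 was the one with separated libraries. Smad1 (chr8:79338395-79399518), a receptor Smad of the BMP branch, had 51.2, 41.9 and 33.7 CPM in Gpr115-KO libraries, against 68.4, 54.7 and 60.0 CPM in WT libraries. The gap between the nearest libraries, Gpr115-KO replicate 1 and WT replicate 2, was small beside the spread within each group. The log2 fold change was -0.53 (SE 0.18, adjusted p = 0.29 by edgeR). Smad5, a second Smad of that branch, had 36.2, 40.5 and 21.6 CPM in Gpr115-KO libraries, against 27.4, 29.1 and 27.6 CPM in WT libraries, with the WT libraries inside the Gpr115-KO range. Smad1 made up 60.9%, 53.9% and 60.0% of the summed CPM per kb of Smad1, Smad5 and Smad9 in Gpr115-KO libraries, against 72.4%, 66.9% and 68.7% in WT libraries. This share, looked at after the values were seen, is given with no test, and its libraries do not overlap. It is built on Smad1, whose own libraries are separated, so it is not an independent difference.

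Smad3, a receptor Smad of the TGF-beta branch, had 34.1, 35.1 and 27.1 CPM in Gpr115-KO libraries, against 37.5, 34.6 and 38.4 CPM in WT libraries. Gpr115-KO replicate 2 exceeded WT replicate 2, and the log2 fold change was -0.20 (SE 0.16, adjusted p = 0.643 by edgeR), or -0.09 without Gpr115-KO replicate 3. Smad2, its partner in that branch, had 22.2 to 30.2 CPM in Gpr115-KO and 20.7 to 29.2 CPM in WT, and the shared Smad4 9.32 to 11.6 CPM in Gpr115-KO and 6.69 to 10.1 CPM in WT. Smad7, an inhibitory Smad induced by TGF-beta, was the most abundant Smad per kb, at 30.7 ± 15.1 CPM per kb in Gpr115-KO and 39.2 ± 5.72 CPM per kb in WT. It had 145, 67.7 and 204 CPM in Gpr115-KO libraries, against 151, 178 and 203 CPM in WT libraries, so that only Gpr115-KO replicate 2 stood clearly apart. Smad6, the inhibitory Smad of the BMP branch, had 7.95 to 16.2 CPM in Gpr115-KO and 7.96 to 12.4 CPM in WT.

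The Id genes encode inhibitors of basic helix-loop-helix factors and are direct BMP targets in many cells. Id1 (chr2:152736251-152737410) had 12.3, 23.9 and 15.2 CPM in Gpr115-KO libraries, against 9.04, 12.1 and 9.73 CPM in WT libraries. Gpr115-KO replicate 2 was highest, while Gpr115-KO replicate 1 and WT replicate 2 nearly met. The log2 fold change was 0.74 (SE 0.26, adjusted p = 0.304 by edgeR), and it came to 0.42 when Gpr115-KO replicate 2 was left out (adjusted p = 0.624 by edgeR). Id2 had 77.5, 108 and 90.3 CPM in Gpr115-KO libraries, against 105, 91.6 and 93.8 CPM in WT libraries, with a log2 fold change of -0.07 (SE 0.16, adjusted p = 0.89 by edgeR). Its groups overlapped fully, and without Gpr115-KO replicate 1 the sign turned, to 0.04. Id3, the most abundant Id gene per kb at 104 ± 12.0 CPM per kb in Gpr115-KO and 104 ± 4.37 CPM per kb in WT, had 172, 178 and 212 CPM in Gpr115-KO libraries, against 177, 192 and 188 CPM in WT libraries. Id4 had 12.1 to 25.4 CPM in Gpr115-KO and 13.1 to 21.2 CPM in WT. Summed per kb, the 4 Id genes gave 143, 171 and 171 CPM per kb in Gpr115-KO libraries, against 155, 158 and 157 CPM per kb in WT libraries, which lie inside the Gpr115-KO range.

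The antagonists held the member with the smallest p-value. Fst (chr13:114452290-114458951, ENSMUSG00000021765), follistatin, which binds activins and some BMPs, had 17.6, 15.2 and 20.3 CPM in Gpr115-KO libraries, against 43.7, 30.8 and 30.6 CPM in WT libraries. Every Gpr115-KO library was below every WT library, and WT replicate 1 was the highest. Means were 17.7 ± 2.55 CPM in Gpr115-KO and 35.0 ± 7.48 CPM in WT (SD, n = 3 each). This is a log2 fold change of -0.98 (SE 0.20), for which edgeR gave an unadjusted p of 0.000444 and an adjusted p of 0.103. DESeq2 gave an adjusted p of 0.00647 and edgeR with no filter on low counts one of 0.000423. Both settings use the same counts and call more genes. DESeq2 called 1.14% of genes with an adjusted p as lower, and edgeR with no filter 1.25%. Leaving out each library in turn gave log2 fold changes of -1.09 to -0.79 and edgeR adjusted p of 0.127 to 0.468. Only 2.51% of the exonic length of Fst is shared with a gene on the opposite strand.

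Chrd (chr16:20733127-20742384), chordin, which binds BMPs and keeps them from their receptors, had 5.57, 8.53 and 5.84 CPM in Gpr115-KO libraries, against 4.43, 2.72 and 4.66 CPM in WT libraries. All Gpr115-KO libraries were above WT, and the log2 fold change was 0.75 (SE 0.31, adjusted p = 0.361 by edgeR). Chrd shares 3.82% of its exonic length with Thpo. Fst was lower and Chrd higher in Gpr115-KO, and per kb Fst was the more abundant of the pair, at 3.86 CPM per kb in Gpr115-KO and 7.63 CPM per kb in WT, while Chrd stayed below 1.4 CPM per kb in every library. Bambi, a decoy receptor without a kinase domain, was the most abundant antagonist per kb, at 75.8 ± 12.7 CPM per kb in Gpr115-KO and 66.9 ± 5.85 CPM per kb in WT. Its level was 313, 438 and 402 CPM in Gpr115-KO libraries, against 305, 356 and 357 CPM in WT libraries, and the groups overlapped. Chrdl1, a chordin-like BMP antagonist, had 1.93 to 2.83 CPM in Gpr115-KO and 1.72 to 3.06 CPM in WT. Nog and Grem1 were too low to test: noggin had 4, 4 and 0 counts in Gpr115-KO libraries, against 15, 4 and 1 counts in WT libraries, and gremlin, not listed in the normalized table, had 2 counts in 1 Gpr115-KO library and 0 in every WT library.

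Among the genes of ligand processing and latency, Bmp1 and Ltbp3 were higher in all Gpr115-KO libraries. Bmp1 (chr14:70474558-70520234), a metalloprotease that cleaves chordin and procollagens and is no BMP ligand, had 43.3, 48.5 and 49.8 CPM in Gpr115-KO libraries, against 28.6, 34.6 and 43.1 CPM in WT libraries. Gpr115-KO replicate 1 and WT replicate 3 almost touched, and the log2 fold change was 0.42 (SE 0.18, adjusted p = 0.371 by edgeR). Ltbp3 (chr19:5740904-5758532), a latent TGF-beta binding protein whose loss in humans gives thin enamel and short stature, had 26.7, 35.1 and 32.5 CPM in Gpr115-KO libraries, against 18.9, 23.5 and 26.2 CPM in WT libraries. Here too Gpr115-KO replicate 1 and WT replicate 3 nearly met, and the log2 fold change was 0.46 (SE 0.18, adjusted p = 0.348 by edgeR). Ltbp1, the most abundant of these genes per kb at 12.2 ± 7.63 CPM per kb in Gpr115-KO and 19.2 ± 5.42 CPM per kb in WT, spread widely, with 124, 52.5 and 215 CPM in Gpr115-KO libraries, against 269, 157 and 188 CPM in WT libraries. Ltbp2, which binds fibrillin but not latent TGF-beta, had 3.10 to 10.8 CPM in Gpr115-KO and 5.88 to 7.71 CPM in WT. Ltbp4, a latent TGF-beta binding protein of elastic fibres, had 13.9 to 14.3 CPM in Gpr115-KO and 10.5 to 17.1 CPM in WT.

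A wider list of 76 other pathway genes gave 0 calls in either direction among 62 tested, with edgeR and with DESeq2. At an unadjusted p under 0.05 edgeR counted 2 higher and 4 lower (9.68%), below the 12.3% of all genes tested. Separated libraries were found in 9 genes (14.5%), 3 higher and 6 lower, below the 17.5% of all genes tested. Lefty1, a secreted antagonist of Nodal, had 3.18, 7.99 and 4.92 CPM in Gpr115-KO libraries, against 2.17, 2.38 and 2.63 CPM in WT libraries. All its Gpr115-KO libraries were above WT, with a log2 fold change of 1.16 (SE 0.37, adjusted p = 0.273 by edgeR). Among 15 regulators of Smad activity 12 were fitted below 0, with a median log2 fold change of -0.22. Of these regulators 4 had separated libraries, all lower (26.7%, against 8.99% of all genes tested separated as lower). By edgeR's unadjusted p under 0.05 there were 1 higher and 4 lower (33.3%, against 12.3% of all genes tested). Trim33, which ubiquitinates Smad4, had 67.4, 43.7 and 60.9 CPM in Gpr115-KO libraries, against 118, 94.9 and 79.3 CPM in WT libraries. Its libraries were separated as well, at a log2 fold change of -0.76 (SE 0.20, adjusted p = 0.223 by edgeR). The gene with the smallest p in each other group had overlapping libraries. Among them the endothelial receptor Acvrl1 had a log2 fold change of -0.47 (SE 0.36, adjusted p = 0.626 by edgeR), and the BMP antagonist Nbl1 0.43 (SE 0.19, adjusted p = 0.407 by edgeR). Itgb6, the integrin subunit that activates latent TGF-beta in epithelia, had -0.43 (SE 0.21, adjusted p = 0.424 by edgeR). Of 8 BMP response genes 4 were fitted above 0 and 4 below, with a median of 0.09. Msx2 was higher in every Gpr115-KO library, with 117, 159 and 133 CPM against 109.9, 112 and 116 CPM in WT libraries. Its Gpr115-KO replicate 1 and WT replicate 3 nearly met, and it was not called. Dlx5, of the same group, had a log2 fold change of -0.32 (SE 0.17, adjusted p = 0.454 by edgeR), and the TGF-beta response gene Postn 0.34 (SE 0.20, adjusted p = 0.502 by edgeR). Single libraries moved several of these log2 fold changes. Without Gpr115-KO replicate 2 they were -0.21 for Acvrl1, -0.68 for Itgb6 and 0.77 for Lefty1. Without Gpr115-KO replicate 3 they were -0.79 for Acvrl1, -0.27 for Itgb6 and 0.22 for Nbl1, and without WT replicate 1 Postn was at 0.52.

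Spread between libraries of the same genotype was large for several members, and 3 libraries held most of the extreme values. Gpr115-KO replicate 3 was the lowest of the 6 libraries in 10 of the 41 tested members (24.4%, against 17.1% of all genes tested) and the highest in 9 (22.0%, against 16.4%). WT replicate 1 was lowest in 10 (24.4%, against 20.5%) and highest in 7 (17.1%, against 20.2%). Gpr115-KO replicate 2 was the highest in 15 members (36.6%, against 26.3%) and the lowest in 8 (19.5%, against 24.9%), so that it lay at an end in many genes of the whole table too. It was lowest for Bmpr1a, Bmp3, Bmp8a, Tgfb3, Smad7, Smad9, Fst and Ltbp1, and highest for Gdf5, Id1 and Chrd among others. Gpr115-KO replicate 2 also had the highest summed level of 7 ameloblast markers, 203024 CPM, beside 96111 and 126182 CPM in the other Gpr115-KO libraries and 112733 to 145676 CPM in WT. It had the lowest sum of 9 pulp and follicle markers (1639 CPM, against 2214 and 2929 CPM in the other Gpr115-KO libraries and 1855 to 2361 CPM in WT) and the highest sum of 9 skeletal muscle markers (177 CPM, against 19.9 and 54.7 CPM in the other Gpr115-KO libraries and 30.6 to 42.7 CPM in WT). Gpr115-KO replicate 3 had the lowest ameloblast and dental epithelium sums (96111 and 1297 CPM) and the highest pulp and follicle sum (2929 CPM). WT replicate 1 had the lowest odontoblast sum (43529 CPM) and the highest smooth muscle and pericyte sum (8126 CPM).

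**Figure D4:**
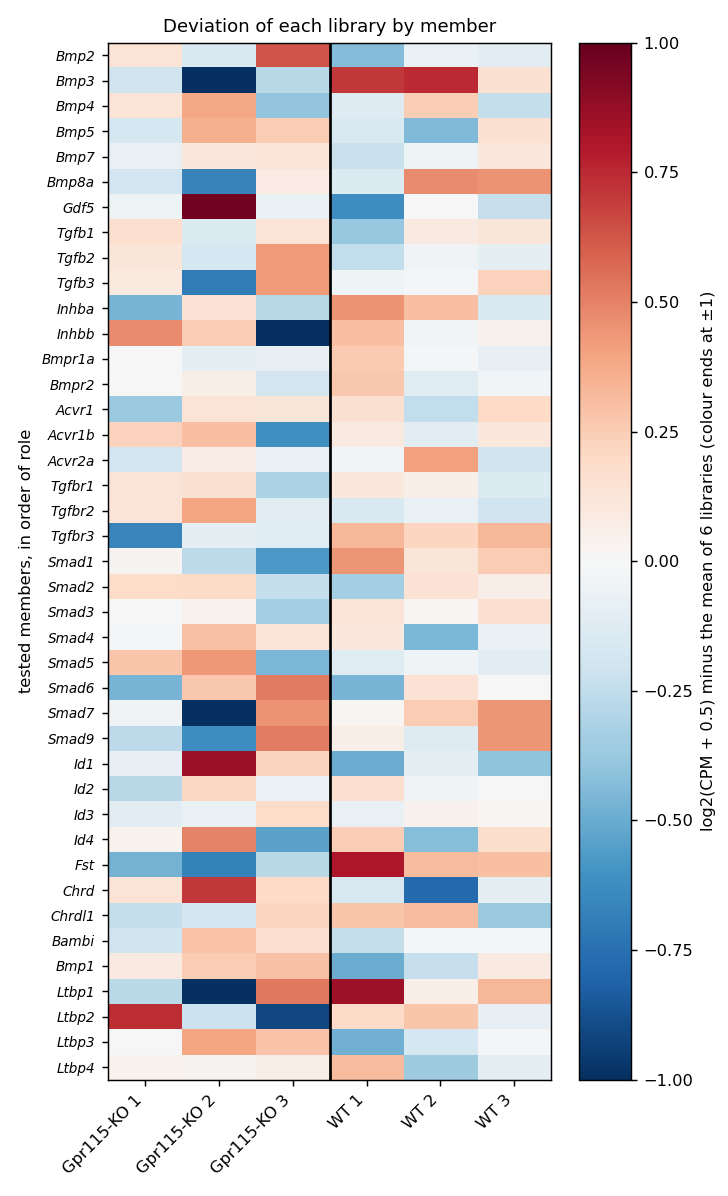
Deviation of each library (columns, Gpr115-KO left of the line) from the mean of the 6 libraries for the 41 tested members (rows, by role), as log2(CPM + 0.5), with red above and blue below the mean. The second Gpr115-KO column holds many of the strongest colours, with Bmp3, Smad7 and Ltbp1 at the blue end and Gdf5 and Id1 at the red end. Inhbb and Ltbp2 are at the blue end in the third Gpr115-KO column.

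Some marker lists of other cell types differed in level between the genotypes. The 7 smooth muscle and pericyte markers, most of their sum from Rgs5, summed to 2066 to 2830.1 CPM in Gpr115-KO and 2838 to 8126 CPM in WT, but none of them had separated libraries. The erythroid list of 7 summed to 158 to 395 CPM in Gpr115-KO and 138 to 158 CPM in WT, with 4 of its genes higher in all Gpr115-KO libraries. The leukocyte list of 9 summed to 98.7 to 119 CPM in Gpr115-KO and 85.3 to 98.5 CPM in WT, with 3 genes higher in all Gpr115-KO libraries. In the smooth muscle and pericyte, erythroid and leukocyte sums the closest libraries of the genotypes nearly met. Over all genes tested 8.55% were higher in all Gpr115-KO libraries. Of the 80 tested markers of all lists 9 (11.2%) were separated in either direction, against 17.5% of all genes tested. By edgeR's unadjusted p under 0.05 the markers numbered 14 (17.5%), 12 higher and 2 lower, against 12.3% of all genes tested. They included all 6 tested erythroid markers and 4 of 8 tested leukocyte markers, each higher in Gpr115-KO. DESeq2 called 5 markers, 3 of them erythroid, 1 leukocyte and 1 of smooth muscle and pericytes. The osteoclast list of 6 summed to 59.6 to 83.3 CPM in Gpr115-KO and 47.2 to 57.1 CPM in WT. Its gap between the nearest libraries was small beside the spread within each genotype. All 4 of its tested genes were fitted above 0, and Ctsk was higher in every Gpr115-KO library. Against this, 1 marker of the list, with too few counts to test, was lower in every Gpr115-KO library. The endothelial list of 7 (58.7 to 83.7 CPM in Gpr115-KO and 72.2 to 84.9 CPM in WT) and the Schwann cell list of 6 (10.8 to 12.6 CPM in Gpr115-KO and 10.4 to 12.4 CPM in WT) overlapped. The lists for ameloblasts, odontoblasts (8 markers, 48357 to 81485 CPM in Gpr115-KO and 43529 to 93959 CPM in WT), dental epithelium (9 markers, 1297 to 2589 CPM in Gpr115-KO and 2043 to 2170.3 CPM in WT) and keratinizing oral epithelium (9 markers, 37.3 to 279 CPM in Gpr115-KO and 37.4 to 142 CPM in WT) overlapped too. Within the dental epithelium list Cdh1 was the 1 gene with separated libraries. It had 75.0, 71.9 and 52.4 CPM in Gpr115-KO libraries, against 112, 105 and 89.7 CPM in WT libraries. No marker of any list was at 0 in all libraries, and the tooth lists were present in every library. The part of these cell types in the values of Bmp3, Fst and the other members was not tested.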

How the data were processed

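RNA-seq libraries of tooth germ RNA, 3 Gpr115-KO and 3 WT, were made with a Nextera XT kit, which does not mark strand, and read as paired ends on a HiSeq1500, per the labels' protocols. The submitters' processing notes name STAR 2.5.2a, the build GRCm38 (mm10), and limma, edgeR and DESeq2. The sources used here do not give the counting tool or its annotation. Raw counts were deposited by the authors for 48709 genes, and 15 transgene rows beside them were left out. They also deposited a normalized signal, CPM scaled by TMM, for 20162 rows. Dividing each of its columns by 1 factor returned the deposited counts for 100% of values, within 0.01 reads.

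The count test was that of edgeR 4.0.16 (R 4.3.3), on genes kept by filterByExpr (at least 10 counts, 15 in total): TMM scaling, a robust two-sided quasi-likelihood F test with genotype as the only term, and Benjamini-Hochberg adjustment over 16011 genes, with a call at 0.05. The biological coefficient of variation was 23.1%. On simulated data for this comparison, 200 of 16011 genes were changed. The test recovered 43% of genes changed by 1 and 94% of those changed by 2 on the log2 scale. Of its 152 calls 15 were false, a larger share than the nominal 0.05. The data themselves gave 24 calls. More calls loosen the adjusted threshold, so recovery in the data may be lower than in the simulation. CPM values carry counting error as well as library spread, and 1 count was worth 0.0904 to 0.114 CPM. Before averaging, pairs of libraries were compared by chi-square, and none agreed within sampling noise (14.8 to 60.7 per degree of freedom within a group).

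Exonic lengths, coordinates and overlaps are from GENCODE vM21 (GRCm38), and near-identical transcripts were sought with blastn 2.17.0 (95% identity over at least 150 nt). Fold changes are printed for Adgrf4, for members with separated libraries, for the 2 members of smallest p in each role, and for the gene of smallest p in each group of other pathway genes. The members and lists were chosen with earlier results of these data known. Alternatives were DESeq2 1.42.0 (Wald test, and its size factors in edgeR), no count filter, the replicate number as a block, removal of each library's trend on gene length, the recovered reads, and each library left out.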

Additional observations from a re-analysis of the deposited data

How the results depend on the processing

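Fold changes of 22 genes were recomputed under 12 alternatives. None of the 22 passed the threshold with all libraries, so no call could be lost. Of the recomputed values 254 kept their direction and side of the threshold, 9 came to pass it, and 1 turned: Id2 ranged from -0.20 to 0.04 on the log2 scale as single libraries were left out. The counts of calls moved most. With no count filter 135 genes were higher and 365 lower in Gpr115-KO, and with DESeq2 64 were higher and 179 lower. Leaving out single libraries gave 5 to 10 higher and 7 to 39 lower genes, beside 6 higher and 18 lower with all libraries. Lower calls numbered 9 without WT replicate 1, 7 without WT replicate 2 and 39 without Gpr115-KO replicate 1, and higher calls 10 without WT replicate 2. Members called lower numbered 2 (Bmp3 and Fst) with no count filter and with DESeq2, and other pathway genes called lower numbered 1 (Trim33) with no count filter. The cause was not tested.

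Same-numbered libraries of both genotypes had correlations of 0.28, 0.029 and -0.064 in their deviations, and only the pair numbered 1 correlated best with its own number, so the numbers were not taken to pair the libraries. With the replicate number as a block 18 genes were higher and 54 lower, and no member was called.

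DESeq2 size factors, removal of the length trend and the reads recovered from the normalized table, the last chosen after seeing the data, gave 6 to 8 higher and 18 to 19 lower genes. No scaling moved the median of all genes beyond 0.02 on the log2 scale. Adgrf4 was called with no count filter (adjusted p = 7.4e-07), with DESeq2 (adjusted p = 0.000488), with the block (adjusted p = 0.0253) and without Gpr115-KO replicate 1 (adjusted p = 0.0143). Recovery of log2 changes smaller than 1, where most members lie, was not simulated, and 7 members were too low to test.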
